A study of Mus musculus with 6 samples.

Results

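The genes of 10 enteroendocrine hormones were described in whole mouse ileum: Gcg, Pyy, Cck, Gip, Sct, Sst, Nts, Tac1, Ghrl and Insl5. They were taken by gene symbol from probe sets that carry exactly 1 symbol, and each of the 10 had 1 such probe set, among 19938 genes measured in this way. Total RNA of the whole ileal segment was hybridised to Affymetrix mouse gene arrays, 1 array for each of 6 mice. The 3 control mice carried Villin-CreERT2 alone: a Cre that tamoxifen activates, driven by the promoter of Villin and so expressed in gut epithelium. The other 3 mice came from a cross of Villin-CreERT2 to GATA6 flox/flox, which lets Cre delete a floxed part of the transcription factor gene Gata6, and are labelled GATA6 KO (KO-labelled below). Both groups thus had the Cre and the drug: tamoxifen, given as 100 mg/ml in the labels, on 5 consecutive days at 6 to 8 weeks of age, with tissue taken 28 days later at 10 to 12 weeks. Cre driven in this way reaches the epithelium but not the muscle, nerves and immune cells that are part of the same tissue. In such bulk samples fewer hormone cells and less hormone RNA per cell cannot be told apart.

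Enteroendocrine cells are scattered single cells of the gut epithelium that sense the contents of the lumen and release peptide hormones from dense granules. They arise from crypt progenitors that switch on the transcription factor Neurog3, and each cell makes several hormones, in a mix that changes along the gut and along the crypt to villus axis. In the ileum, cells of the L type make products of Gcg and Pyy, often with Nts, while Gip, Sct and Cck are best known from the duodenum and jejunum, Ghrl from the stomach and Insl5 from the colon. Tac1 and Sst are also used by neurons of the gut wall.

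The targeted gene, Gata6, was not lower: it read 6.31, 6.33 and 6.50 on the control arrays, against 6.94, 6.81 and 6.86 on the KO-labelled ones, which is 1.41-fold higher (limma adjusted p = 0.0162). Directions below are therefore those of the labels. Whether its probe set covers the floxed part is not stated in the labels, and signal from outside that part would check nothing. Control replicate 3 read 2.31 for Xist and 5.30 for the Y-linked gene Eif2s3y, against 7.39 to 7.81 and 0.27 to 0.61 on the other arrays, which are the signals of a male among females. Control replicate 1 stood apart from the other controls in some genes of the colon list. Car1, a carbonic anhydrase abundant in colon, read 10.96 there against 5.68 and 6.87, and Cyp2c55 7.38 against 5.08 and 4.55. Retnlb read 6.77 against 4.98 and 5.26, and Aqp8 5.60 against 2.89 and 2.84. The other measured genes of that list did not stand apart. Sult1c2 read 4.21 against 4.21 and 3.98, and Ggh 3.71 against 3.83 and 3.70. Values without either array or both are given with the results. Over all 35557 probe sets, correlations lay between 0.987 and 0.992 within a group and between 0.980 and 0.984 across groups. As a level of genes that ileum should mostly lack, the 95th percentile of 1027 olfactory receptor genes lay between 2.42 and 2.59 on the 6 arrays, and the median of all probe sets between 3.33 and 3.44. The number of arrays limits the precision.

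The promoters of 6 of the genes are shown because a GATA factor gene is the target of the mouse model, and because they include the 4 genes with the largest decreases and a gene with a pair of GATA motifs. Each is the window from 250 bases before to 50 bases after the annotated start, from RefSeq on GRCm38.p6, read 5′ to 3′ on the strand of the gene. Capitals mark matches to a GATA motif (GATA with A or T just before it and A or G just after it, on either strand) and, for Sst, to the palindromic cAMP response element TGACGTCA.
Tac1, chr6:7554811-7555110, plus strand: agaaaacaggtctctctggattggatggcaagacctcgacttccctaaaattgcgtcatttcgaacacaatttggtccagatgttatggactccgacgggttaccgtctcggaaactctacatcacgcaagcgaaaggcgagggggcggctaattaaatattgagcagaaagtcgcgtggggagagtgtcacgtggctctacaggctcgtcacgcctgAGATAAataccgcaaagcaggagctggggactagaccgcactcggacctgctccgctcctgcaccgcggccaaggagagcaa
Nts, chr10:102490369-102490668, minus strand: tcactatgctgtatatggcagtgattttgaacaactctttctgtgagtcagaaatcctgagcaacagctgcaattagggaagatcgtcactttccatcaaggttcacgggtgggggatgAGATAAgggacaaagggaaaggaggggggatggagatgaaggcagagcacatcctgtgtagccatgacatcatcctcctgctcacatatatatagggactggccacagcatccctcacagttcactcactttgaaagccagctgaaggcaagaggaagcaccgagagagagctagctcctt
Cck, chr9:121495645-121495944, minus strand: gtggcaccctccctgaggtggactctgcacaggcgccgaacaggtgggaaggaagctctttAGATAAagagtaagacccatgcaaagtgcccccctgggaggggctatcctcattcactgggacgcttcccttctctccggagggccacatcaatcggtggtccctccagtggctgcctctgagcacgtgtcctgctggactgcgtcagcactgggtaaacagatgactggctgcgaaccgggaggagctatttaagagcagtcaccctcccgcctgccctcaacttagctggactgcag
Gip, chr11:96024295-96024594, plus strand: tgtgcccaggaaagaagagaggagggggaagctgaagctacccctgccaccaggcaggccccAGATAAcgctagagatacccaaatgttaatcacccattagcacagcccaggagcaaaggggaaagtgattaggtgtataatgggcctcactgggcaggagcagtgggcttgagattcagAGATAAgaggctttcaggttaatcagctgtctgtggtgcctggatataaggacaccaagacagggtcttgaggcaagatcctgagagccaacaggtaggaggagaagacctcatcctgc
Pyy, chr11:102107783-102108082, minus strand: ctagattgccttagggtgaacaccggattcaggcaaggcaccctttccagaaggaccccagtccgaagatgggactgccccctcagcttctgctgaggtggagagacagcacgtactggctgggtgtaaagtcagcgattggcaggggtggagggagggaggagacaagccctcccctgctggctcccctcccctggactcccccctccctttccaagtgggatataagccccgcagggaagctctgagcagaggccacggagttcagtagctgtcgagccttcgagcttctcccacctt
Sst, chr16:23890795-23891094, minus strand: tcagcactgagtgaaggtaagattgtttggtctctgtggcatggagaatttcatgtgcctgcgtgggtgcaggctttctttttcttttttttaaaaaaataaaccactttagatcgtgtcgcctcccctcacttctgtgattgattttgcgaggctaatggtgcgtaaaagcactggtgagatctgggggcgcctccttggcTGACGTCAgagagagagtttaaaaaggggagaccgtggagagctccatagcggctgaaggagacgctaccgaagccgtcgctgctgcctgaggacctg
Tac1, Nts and Cck each hold 1 GATA match, which begins at position -32, -131 and -189 from the start, and Gip holds a pair, at -188 and -69. The windows of Pyy, Gcg, Sct and Sst hold none. All 10 genes matched the RefSeq table, with 15 windows in all since some have several starts, and 7 of the 15 windows, from 6 genes, hold a GATA match, against 29.8% of all 32851 windows in the table. Ghrl holds a match in both of its windows 3 and 4, which overlap, and Insl5 holds 3 in its second window and none in its first. The cAMP response element of Sst, at position -48, is found in 1.79% of all windows. TATAAA on the sense strand, searched in the same windows, occurs in those of Gcg (position -24), Sct (-28) and Insl5 (second window, -49), and in 8.32% of all windows. No matches to different motifs overlapped, and a match is a run of letters and not shown to be a bound site.

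**Figure D1:**
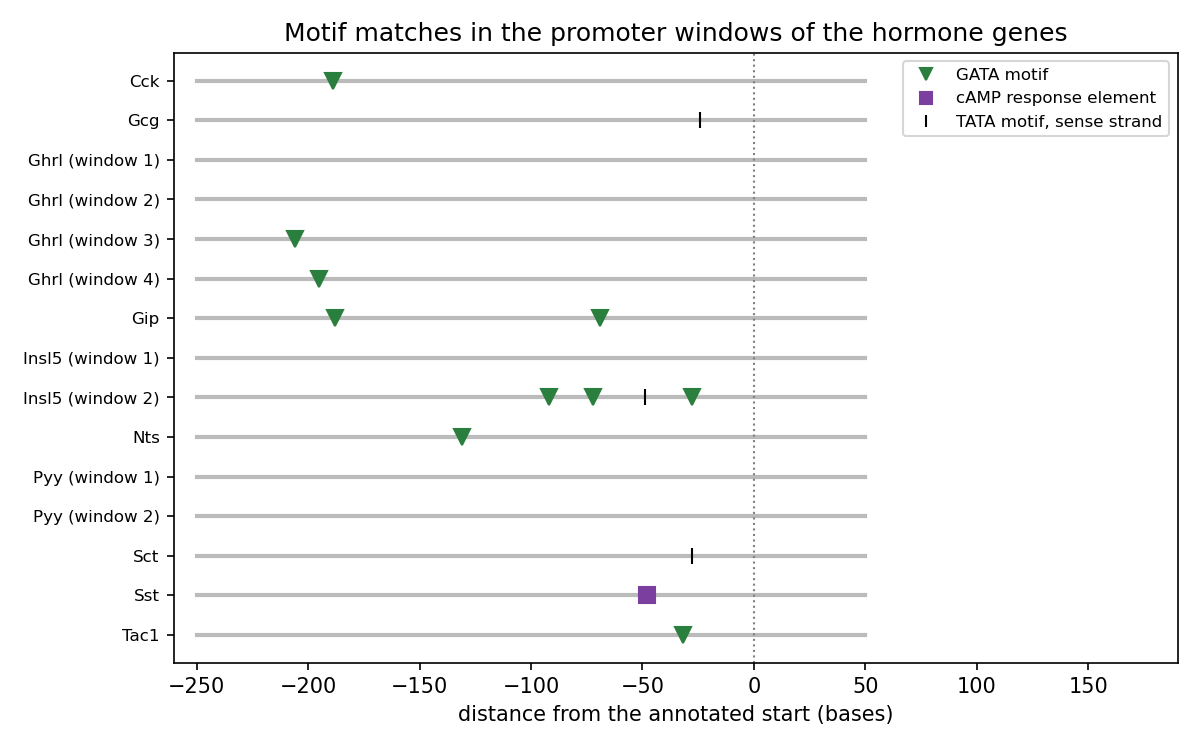
Positions of motif matches in the 15 promoter windows of the 10 hormone genes, as distance in bases from each annotated start (dotted line at 0); grey lines span the window. GATA motifs (triangles) lie in windows of Cck, Ghrl, Gip, Insl5, Nts and Tac1, the cAMP response element (square) in that of Sst, and sense-strand TATAAA (ticks) in those of Gcg, Insl5 and Sct.

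The comparison asked which of the hormone genes differed between ileum labelled GATA6 KO and control ileum. At a limma adjusted p under 0.05, 6 of the 10 were lower and none higher on the KO-labelled arrays: Tac1 by 4.75-fold, Pyy by 2.94-fold, Nts by 2.32-fold, Cck by 1.93-fold, Sst by 1.82-fold and Gcg by 1.42-fold. Gip, Sct, Ghrl and Insl5 did not pass, with log2 fold changes between -0.29 and 0.31. Among all 19938 genes, 8.24% were called in either direction, 3.25% lower and 4.99% higher, and 0.983% were called lower by at least 2-fold, as were 3 of the 10. Without moderation of the variances 1 of the 6, Sst, still passed, and the adjusted p of the others lay between 0.0551 and 0.151. The median log2 fold change of the 10 genes was -0.68, against 0.00 (-0.0043) for all genes. The groups did not overlap, in either direction, for 8 of the 10, against 29.3% of all genes tested. These 8 include Insl5, which was higher by a margin of 0.001, and Ghrl, which was lower by a margin of 0.071.

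**Figure D2:**
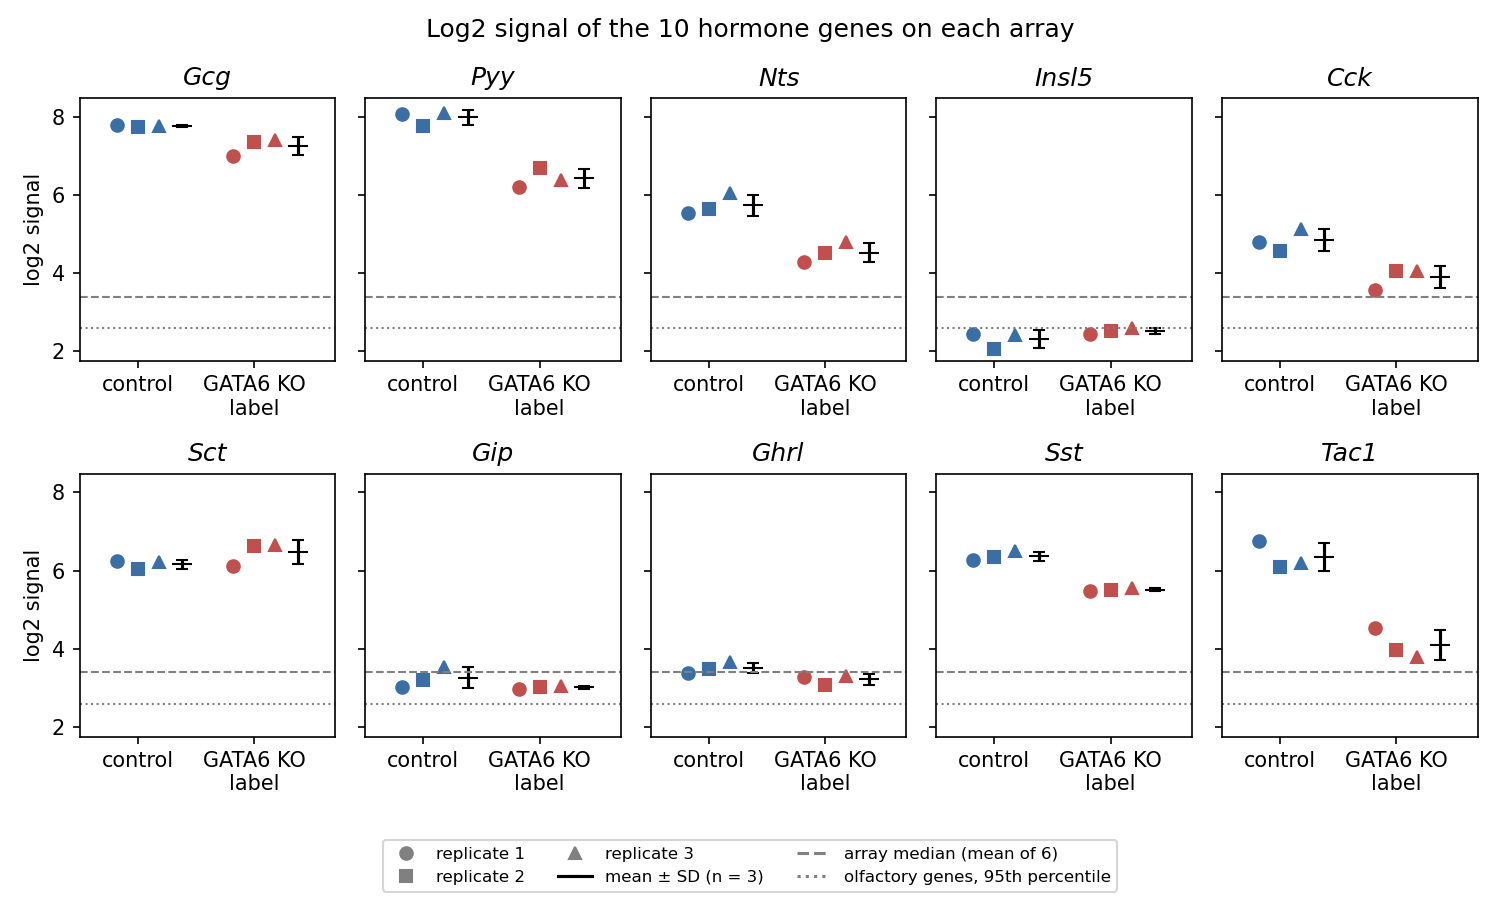
Log2 signal of each hormone gene on the 3 control arrays (blue) and the 3 arrays labelled GATA6 KO (red), with the marker shape giving the replicate number and black bars the mean ± SD (n = 3); the dashed line is the mean of the 6 array medians and the dotted line the highest of the 6 olfactory gene percentiles. The red points of Gcg, Pyy, Nts, Cck, Sst and Tac1 lie below all their blue points, as do those of Ghrl by 0.071. Insl5 lies around the dotted line in both groups.

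Pyy and Gcg are the main hormone genes of ileal L cells. Pyy encodes peptide YY, which slows transit and reduces food intake. It read 8.08, 7.76 and 8.11 on the control arrays, against 6.21, 6.69 and 6.38 on the KO-labelled ones. All 3 of the latter were lower than every control by more than 1 log2 unit. The change in log2 signal was -1.56 (SE 0.15, 3 arrays per group), with a limma adjusted p of 0.0017. Gcg encodes proglucagon, which L cells cut into the glucagon-like peptides. Its signal was 7.78, 7.73 and 7.76 on the control arrays, against 6.999, 7.35 and 7.41 on the KO-labelled ones. The controls were nearly level (7.76 ± 0.03, SD, n = 3), and KO-labelled replicate 1 was the lowest. The log2 fold change of -0.51 (SE 0.12) had a limma adjusted p of 0.0424, close to the threshold, and the call was lost without any 1 of the 6 arrays, with adjusted p between 0.0563 and 0.131.

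Nts encodes neurotensin, a peptide of distal small intestinal endocrine cells that promotes fat absorption. It read 5.52, 5.65 and 6.04 on the control arrays, against 4.28, 4.504 and 4.79 on the KO-labelled ones, with no overlap. The log2 fold change was -1.21 (SE 0.17, limma adjusted p = 0.0080). Insl5 encodes insulin-like peptide 5, a hormone of colonic L cells that acts on the receptor Rxfp4. Its signal of 2.45, 2.06 and 2.42 in the controls was at or below the 95th percentile of the olfactory receptor genes on all 3 arrays, and 2.45, 2.52 and 2.59 in the KO-labelled arrays was just above it. Its groups were separated by 0.001, the log2 fold change was 0.21 (95% interval -0.07 to 0.49), and it did not pass (limma adjusted p = 0.323). Insl5 thus had no clear signal on any array.

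Cck, Sct and Gip are hormone genes best known from the upper small intestine, and Sct had a clear signal in this ileum. Cck encodes cholecystokinin, which contracts the gallbladder and releases pancreatic enzymes. It read 4.795, 4.57 and 5.13 on the control arrays, against 3.57, 4.05 and 4.05 on the KO-labelled ones. The groups did not overlap and the log2 fold change was -0.95 (SE 0.18, limma adjusted p = 0.0242). The call was kept without control replicate 2 (adjusted p = 0.0330) and lost without control replicates 1 (0.0710) or 3 (0.0793) or KO-labelled replicates 1 (0.0677), 2 (0.0704) or 3 (0.0602). Sct encodes secretin, which raises the bicarbonate output of the pancreas. Its signal was 6.23, 6.03 and 6.22 on the control arrays, against 6.13, 6.64 and 6.65 on the KO-labelled ones, so KO-labelled replicate 1 lay among the controls and the others above them. The log2 fold change of 0.31 (95% interval -0.05 to 0.67) did not pass (limma adjusted p = 0.260), and the interval leaves out a decrease as large as that of any gene that was called.

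Gip encodes the insulin-releasing hormone of K cells. It read 3.02, 3.21 and 3.54 on the control arrays, against 2.96, 3.02 and 3.05 on the KO-labelled ones, where all 3 lay below the array medians and the groups overlapped. The log2 fold change was -0.25 (95% interval -0.56 to 0.06, limma adjusted p = 0.292). Ghrl encodes ghrelin, a hormone of hunger made mainly in the stomach. Its signal was 3.38, 3.49 and 3.66 on the control arrays, against 3.28, 3.06 and 3.31 on the KO-labelled ones, close to the array medians in both groups. The groups did not overlap, by a margin of 0.071, and the log2 fold change of -0.29 (95% interval -0.54 to -0.04) did not pass (limma adjusted p = 0.149). On the KO-labelled arrays both lay above the olfactory gene level by less than 1 log2 unit.

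Sst encodes somatostatin, which D cells release to restrain other endocrine cells. It read 6.27, 6.34 and 6.49 on the control arrays, against 5.48, 5.49 and 5.55 on the KO-labelled ones. The replicates of each group were close to each other, and the log2 fold change was -0.86 (SE 0.08, limma adjusted p = 0.0018). Tac1 encodes the precursor of substance P and neurokinin A, tachykinins of enterochromaffin cells and enteric neurons that drive gut contraction. Its signal was 6.75, 6.08 and 6.19 on the control arrays, against 4.53, 3.97 and 3.78 on the KO-labelled ones. Every KO-labelled array was lower than every control by at least 1.55, and the log2 fold change was -2.25 (SE 0.24, limma adjusted p = 0.0026). This was the largest decrease of the 10 genes, and 0.171% of all genes had a change at or below it.

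**Figure D3:**
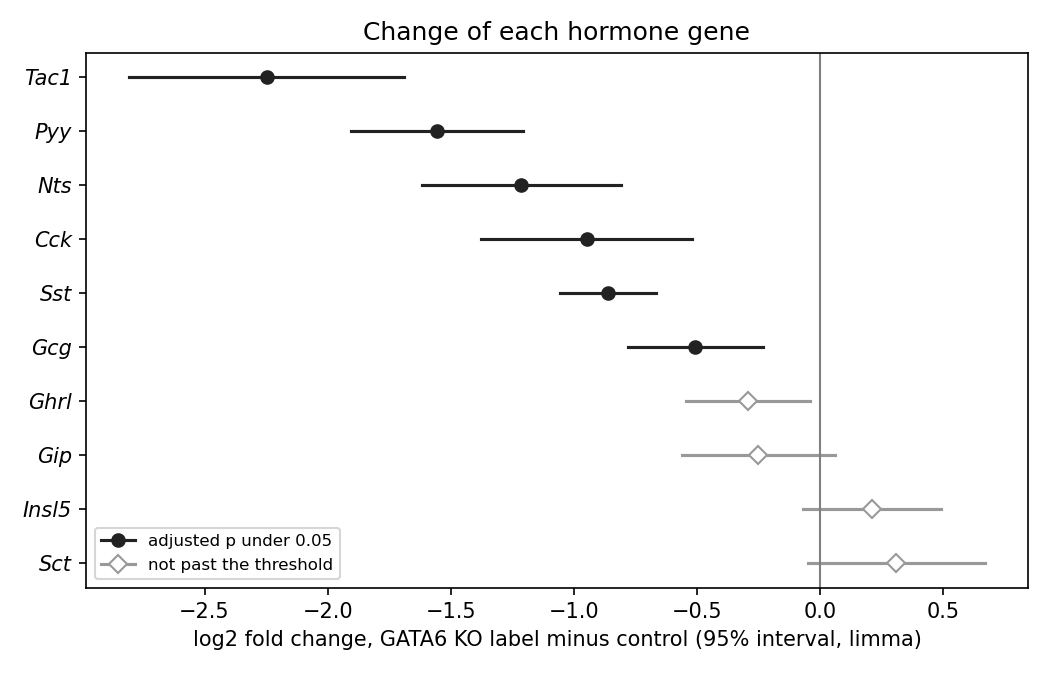
Log2 fold change of each hormone gene (GATA6 KO label minus control, x axis) with its 95% interval from limma; filled circles passed an adjusted p of 0.05 and open diamonds did not. The points run from -2.25 for Tac1 to 0.31 for Sct.

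Replicates did not deviate in the same way for all genes. Control replicate 3, the array with male signals, was the highest control for 6 of the 10, which were Pyy, Cck, Gip, Sst, Nts and Ghrl. KO-labelled replicate 1 was the lowest of its group for 8 of the 10 and the highest for Tac1. How often these 2 arrays were highest or lowest of their group over all genes was not counted, so a general tilt cannot be told apart. Without control replicate 3 the log2 fold changes of Pyy, Sst, Nts and Tac1 still passed, and 4 genes were called in all. The same 4 were called without control replicate 1, the array with some high colon genes. Without both, a setting added after the data were seen, 1 control array is left, whose spread is taken from the other group. Calls of that fit are not given, since 1 array cannot show the spread of controls. The log2 fold changes were then -1.99 for Tac1, -1.33 for Pyy, -1.13 for Nts, -0.83 for Sst, -0.69 for Cck and -0.48 for Gcg. Over the 6 fits that leave out 1 array, Pyy ranged from -1.69 to -1.45, Sst from -0.91 to -0.80, Nts from -1.35 to -1.06 and Tac1 from -2.47 to -2.04, and these 4 kept the call in each. With 1 array left out, 4 or 5 of the 10 genes were lower and none was higher. Over all 19938 genes, these fits called 277 to 597 lower, against 648 with all 6 arrays, so calls were lost among genes in general.

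**Figure D4:**
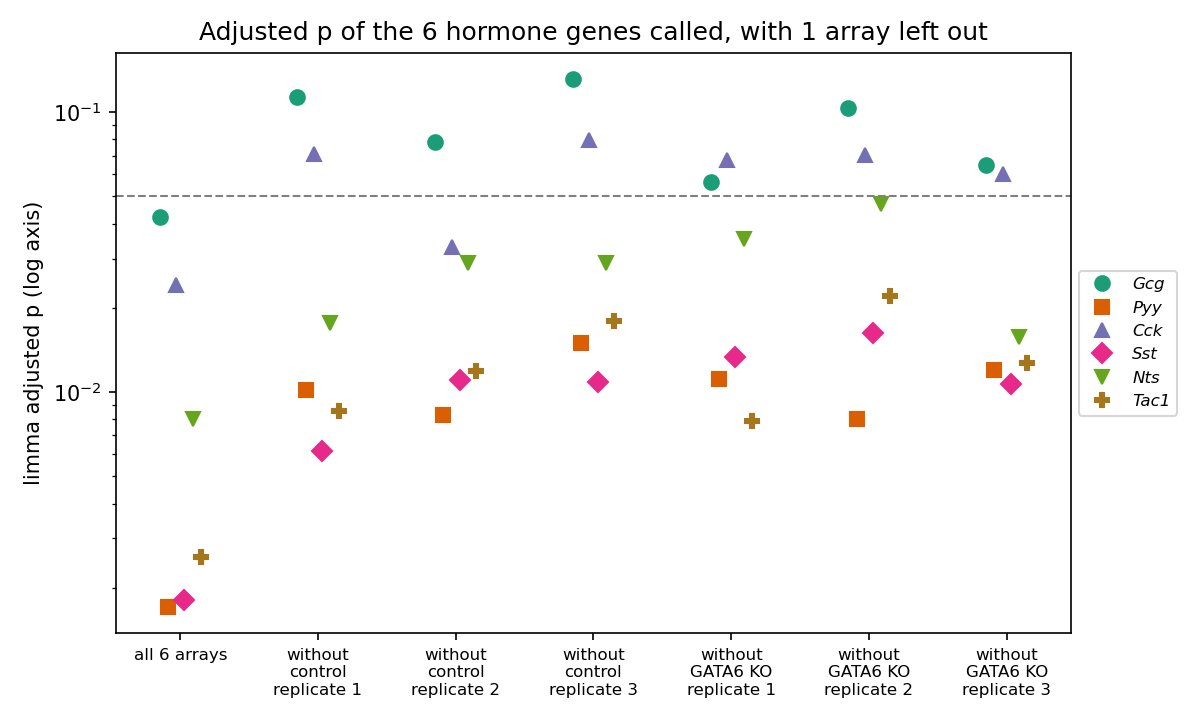
Limma adjusted p (log axis) of the 6 hormone genes called, with all 6 arrays and with each array left out in turn; the dashed line is 0.05. Pyy, Sst, Nts and Tac1 stay below the line in each fit, Cck lies above it in 5 of the 6 fits with 1 array left out, and Gcg in all 6.

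Genes made by the same or neighbouring endocrine cells were compared by the difference of their log2 signals within each array, over 9 pairs, with an exact two-sided permutation test over the 20 splits of the arrays. With 3 arrays against 3 the smallest p this test can give is 0.10, so no pair could pass 0.05. The 95% intervals of the pairs come from a t distribution with the spread pooled over both groups. They are neither moderated nor adjusted for the 9 pairs. Pyy differed relative to Gcg by -1.05 on the log2 scale (95% interval -1.45 to -0.65, exact permutation p = 0.10, adjusted p = 0.113), and the groups did not overlap in this difference. Nts differed relative to Gcg by -0.71 (interval -1.18 to -0.24, exact permutation p = 0.10). For Nts and Pyy the difference was 0.34 (interval -0.30 to 0.98, exact permutation p = 0.30), with overlapping groups. Against Insl5, the changes of Pyy and Gcg differed by -1.77 (interval -2.14 to -1.39) and -0.72 (interval -1.12 to -0.32), where Insl5 itself had no clear signal.

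Cck differed relative to Sct by -1.26 (interval -1.59 to -0.92) and relative to Gip by -0.70 (interval -1.20 to -0.19). Each of these pairs had an exact permutation p of 0.10 and no overlap. Tac1 was also set against Tph1, the enzyme that starts serotonin synthesis in enterochromaffin cells. Their difference changed by -2.26 (interval -3.42 to -1.09, exact permutation p = 0.10). The change of Sst differed from that of Tac1 by 1.39 (interval 0.41 to 2.37, exact permutation p = 0.10). After adjustment of the exact permutation p over the 9 pairs, 8 had p = 0.113 and the remaining pair, Nts and Pyy, p = 0.30.

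For each of the 6 genes called, the most similar profiles among all genes were found by the root mean square difference of log2 signals over the 6 arrays, each gene centred on its own mean. The nearest to Gcg was Slc22a12 (0.054), to Pyy Lgals9 (0.139), to Cck Xaf1 (0.096), to Sst Cdk18 (0.044), to Nts Smim24 (0.061) and to Tac1 Adh6a (0.253). Next came Pwwp2a and Gm10822 for Gcg, Rnf213 and Herc6 for Pyy, Tlcd2 and Ube2l6 for Cck, Bend7 and Erich4 for Sst, Ugt2b36 and Sowaha for Nts, and Mmp7 and Bcl2l15 for Tac1. Among the 6 hormone genes themselves Cck and Nts were closest (0.189), while Tac1 stood farthest from Gcg (0.960). None of the 6 was among the nearest 3 of another. With 6 arrays in 2 groups, this measure includes the difference between the groups.

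Other genes of the endocrine pathway were called in both directions. On 6 lists of gut peptides, endocrine transcription factors, granule proteins, serotonin synthesis, sensors and hormone receptors, 6 of 96 measured genes were lower and 7 higher, against the 3.25% and 4.99% of all genes, with a median log2 fold change of -0.03. Of these 13 genes, 4 kept the call in each fit that leaves out 1 array, namely Slc18a1, Dpp4, Ffar4 and Penk.

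Of 14 other gut peptide genes 1, Penk, was called. Penk encodes the opioid precursor proenkephalin and read 4.31, 4.06 and 4.32 on the control arrays, against 4.92, 5.18 and 5.00 on the KO-labelled ones, higher on each of the latter (log2 fold change 0.80, SE 0.11, limma adjusted p = 0.0063). Of 17 endocrine transcription factors, 2 were lower and 1 higher. Neurog3, which commits progenitors to the endocrine fate, read 2.45, 2.55 and 2.64 on the control arrays, against 1.98, 2.07 and 2.00 on the KO-labelled ones, and Neurod1, which acts after it, fell by 0.42 on the log2 scale (SE 0.10, limma adjusted p = 0.0426). The decrease of Neurog3 was -0.52 (SE 0.08, limma adjusted p = 0.0108). Both genes lay around or below the olfactory gene level in every array, so the size of their changes is uncertain. Neurod1 lost the call without any 1 of the 6 arrays (adjusted p 0.0623 to 0.149) and Neurog3 without KO-labelled replicate 3 (0.05003). Foxa1, a forkhead factor of endodermal epithelium, was the gene that rose, by 0.87 (SE 0.13, limma adjusted p = 0.0107), and lost the call without KO-labelled replicate 2 (0.0582).

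Of 21 granule and prohormone processing genes 4 rose and none fell. Pcsk1, the convertase that cuts prohormones such as proglucagon, read 5.16, 5.84 and 5.49 on the control arrays, against 6.37, 6.34 and 6.34 on the KO-labelled ones, above all controls. Its log2 fold change was 0.85 (SE 0.16, limma adjusted p = 0.0219). Pam, which amidates peptide ends, rose by 0.58 (SE 0.09), the carboxypeptidase Cpe by 0.54 (SE 0.12) and the granin Scg3 by 0.51 (SE 0.09). Each of the 4 lost the call in some fits without 1 array: Cpe in 5, Pcsk1 in 4, Scg3 in 3 and Pam in 2 of the 6, with control replicate 3 and KO-labelled replicate 2 among the arrays in each case. The general endocrine granule marker Chga read 5.61, 5.55 and 5.77 on the control arrays, against 5.14, 5.50 and 5.15 on the KO-labelled ones. All 3 of the latter were below the controls, and the difference of -0.38 on the log2 scale (SE 0.12) did not pass (limma adjusted p = 0.107). Pcsk2 was not analysed here.

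In the serotonin list 2 of 4 genes were lower. Slc18a1, the transporter that loads serotonin into granules, read 4.36, 4.55 and 4.62 on the control arrays, against 3.73, 3.70 and 3.46 on the KO-labelled ones (log2 fold change -0.88, SE 0.11, limma adjusted p = 0.0045). Ddc, the decarboxylase of serotonin synthesis, which absorptive cells also express, fell by 0.73 (SE 0.12, limma adjusted p = 0.0141). It lost the call without control replicate 3 or KO-labelled replicate 2 (up to 0.0704). Tph1 differed by 0.01 on the log2 scale (SE 0.12, limma adjusted p = 0.977), with 3.61, 3.86 and 3.65 on the control arrays, against 3.52, 3.86 and 3.77 on the KO-labelled ones. Of 14 nutrient and bile acid sensors Ffar4, a receptor for long-chain fatty acids, was called, with 4.44, 4.70 and 4.71 on the control arrays, against 6.51, 5.73 and 6.37 on the KO-labelled ones, a rise of 1.59 on the log2 scale (SE 0.20, limma adjusted p = 0.0053).

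Of 26 genes of hormone receptors and hormone breakdown, 24 did not pass and both that fell encode peptidases that cut gut hormones. Dpp4, which inactivates glucagon-like peptides and trims peptide YY, read 9.35, 9.57 and 9.46 on the control arrays, against 8.29, 8.15 and 8.60 on the KO-labelled ones (log2 fold change -1.11, SE 0.13, limma adjusted p = 0.0037). Mme, or neprilysin, fell by 2.60 (SE 0.56, limma adjusted p = 0.0343), with 4.81 in control replicate 1 against 6.90 and 6.75 in the other controls, and lost the call in 5 of the 6 fits without 1 array. Both are also brush border enzymes of enterocytes.

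**Figure D5:**
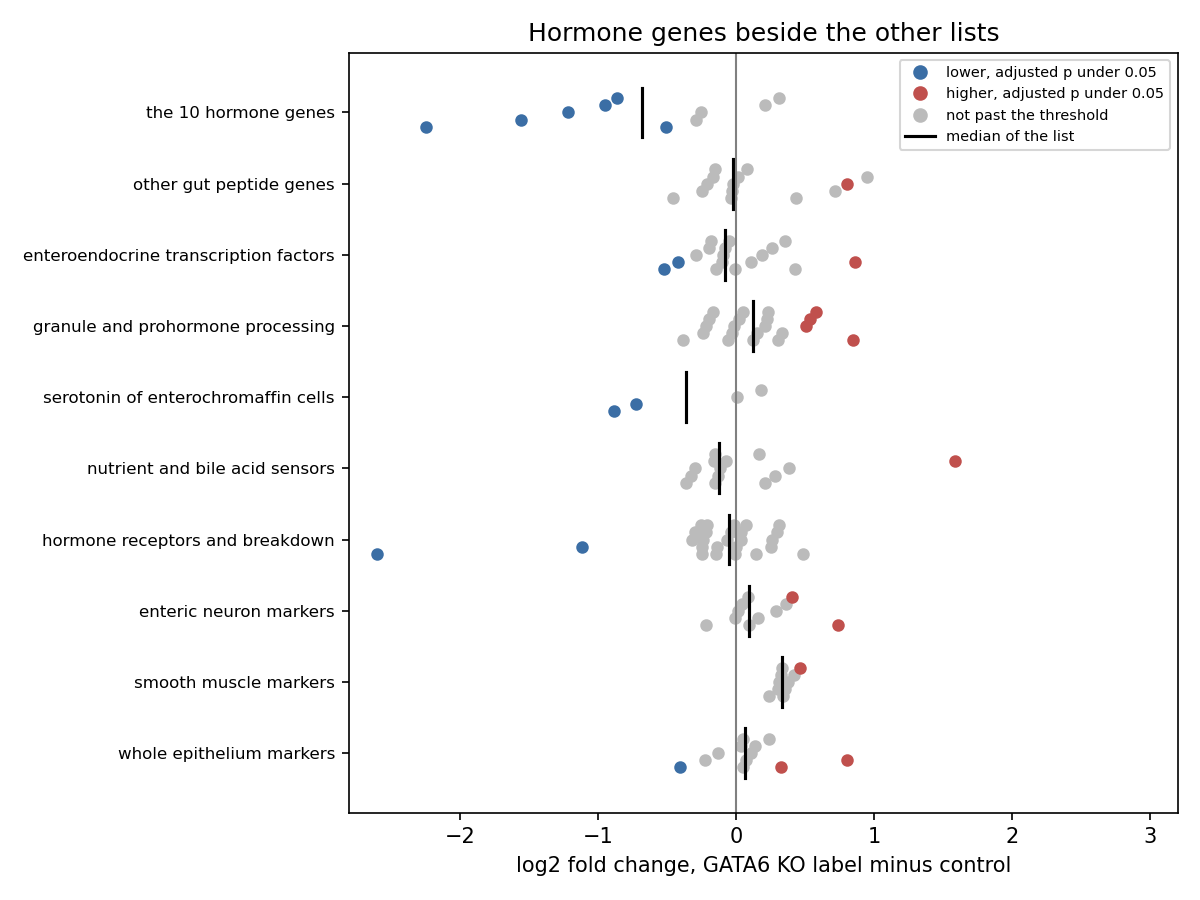
Log2 fold change (GATA6 KO label minus control, x axis) of each measured gene in the 10 hormone genes, 6 endocrine pathway lists and 3 marker lists; blue and red points passed an adjusted p of 0.05 as lower or higher, grey points did not, and black bars are list medians. The 10 hormone genes have a median of -0.68, and the medians of the granule, neuron, muscle and epithelium lists lie above 0.

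Markers of other cells in the tissue were measured beside the hormone genes. Of 11 enteric neuron markers 2 rose, Stmn2 by 0.74 (SE 0.11, limma adjusted p = 0.0086) and Prph by 0.41 (SE 0.08, 0.0256). The other 9 were not called. The summed neuron level was 7.25 to 7.34 on the control arrays and 7.51 to 7.68 on the KO-labelled arrays on the log2 scale, and Chat alone lay at or below the olfactory gene level on all 6. Of 10 smooth muscle markers Tagln rose (0.46, SE 0.10, limma adjusted p = 0.0388) and the other 9 stayed short of the threshold; their median log2 fold change was 0.34, and their summed level 11.7 to 11.9 against 11.9 to 12.2. Sst and Tac1 are among the hormone genes that neurons share, and the part of neurons was not tested for any of the decreases.

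Of 12 markers of the whole epithelium Vil1 fell (-0.41, SE 0.08), Krt19 and Esrp1 rose and 9 did not pass, with a summed level of 13.6 to 13.7 for the controls and 13.6 to 13.8 for the KO-labelled mice. The epithelial adhesion gene Epcam read 9.88, 10.02 and 10.02 against 9.97, 9.98 and 10.09. With each array centred on the mean of these epithelium markers, a setting added after the data were seen, the same count of 6 hormone genes was lower. That centring moved all genes towards lower values, with a median log2 fold change of -0.093. It called 975 of all genes lower, against 648 without it. Of 10 enterocyte markers 9 fell, with Mttp, Mgam, Slc15a1, Apoa1, Sis and Anpep the 6 of smallest p, the list median being -1.94 on the log2 scale and the summed levels of 12.8 to 13.2 against 10.8 to 11.3. Of 9 colon markers 5 rose (Sult1c2, Cyp2c55, Ggh, Slc6a14 and Retnlb), with summed levels of 9.82 to 11.6 against 12.92 to 13.02, and Hoxb13 lay at or below the olfactory gene level. The 11.6 was that of control replicate 1. Car1 read 12.20, 12.18 and 12.14 on the KO-labelled arrays and did not pass (log2 fold change 4.34, SE 1.19, limma adjusted p = 0.0722). Of 5 pancreas markers Ctrb1 fell (-0.63, limma adjusted p = 0.0468), and Cel, Prss2 and Ins2 did not rise above the olfactory gene level on any array. None of 8 lymphoid or 4 glia markers was called. Of the neuron, muscle and epithelium markers called, Krt19 lost the call in all 6 fits without 1 array, Prph in 5, and Tagln and Vil1 in 4 each. The part of these shifts in the hormone results was not tested.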

How the data were processed

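Total RNA of whole ileum from 3 control mice and 3 mice labelled GATA6 KO was measured, 1 array per mouse, with groups from the sample titles. The deposited table holds 1 log2 value for each probe set and array. The submitters' processing notes name Affymetrix Expression Console as the authors' tool, without version, background correction or normalization. That the scale is log2 was read from the span of values (-0.47 to 12.73). No further scaling was applied.

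Of 35557 probe sets, 21789 carry 1 symbol, 1621 several and 12147 are not listed in the platform table; the brightest by mean over the 6 arrays stood for each of 19938 genes. Genes were tested with limma 3.58.1 (R 4.3.3; lmFit and eBayes, two-sided) with Benjamini-Hochberg adjustment over all genes and a threshold of 0.05; SE is the moderated one. The fit was tested on simulated arrays. Exact permutation tests used scipy 1.17.1. The labels name 3 individual mice per group. Named genes were the 10 hormone genes, the genes called on each list (at most 6 by p), Chga, Neurog3, Neurod1, Tph1, Dpp4, Pcsk1 and Pcsk2, and the 3 nearest profiles of each gene called; Hoxb13, Car1, Aqp8, Chat, Cel, Prss2, Ins2 and Epcam were added with their values known. The genes and lists were chosen with earlier results of these data known. Genes without a probe set of 1 symbol (such as Pcsk2) were not analysed here. Promoter sequences are from RefSeq (GRCm38.p6), and figures were drawn with matplotlib 3.10.9. Alternatives covered scaling, a filter on dim genes, probe set choice, moderation, weighting of arrays, a block for replicate numbers and leaving out arrays.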

Additional observations from a re-analysis of the deposited data

How the results depend on the processing

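No hormone gene changed direction under any of the 17 alternatives that tested it, and none was called higher in any. Of the 6 genes lower, 1 (Sst) was called without moderation, and the number lay between 4 and 5 over the fits that leave out 1 array. Leaving out control replicates 1 (high in colon genes) and 3 (male signals) together keeps 1 control array, whose spread is taken from the other group. For that setting only log2 fold changes are given. The number was 5 with each array centred on its median, where Gcg had an adjusted p of 0.0516, and 5 with the replicate number as a replicate block, where Gcg had 0.0663. The numbers are not shown to pair the mice, since same-numbered deviations correlated at 0.043, -0.040 and 0.153, and the block changed no other call among the 10. The filter on dim genes left 7 of the 10 in the test, and the other settings called 6.

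On the other endocrine lists, 6 genes were lower and 7 higher. Without moderation both counts were 0. With each array centred on its median 13 were higher, with quantile normalization 11 and with array weights 11; with centring on the epithelium markers 10 were lower. Leaving out 1 array gave 3 to 6 lower and 2 to 8 higher, while over all genes such fits called 597 to 1403 in either direction, against 1643. Centring on medians moved the split over all genes to 1562 higher and 565 lower from 995 and 648, and centring on the epithelium markers to 604 and 975. Array weights called 1952 genes in all, and the count without moderation was 274 against 1643; the causes were not tested. The 9 pair differences were computed under quantile normalization and without each of the 6 arrays in turn, and under these kept their sign and moved by less than the spread between replicates; the other alternatives were not run for them. Signal near the olfactory gene level limits what can be said of Insl5, Gip, Ghrl, Neurog3 and Neurod1.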
